A study of Bombus terrestris audax with 20 samples.

Results

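Krüppel homologue 1 (Kr-h1) was 1 of 14817 features in the table of whole-larva transcript abundances from the bumblebee Bombus terrestris audax, and was picked by its feature identifier, NC_015765.1_2490563_2492637. Its feature runs over 2075 bases on the minus strand at NC_015765.1:2490563-2492637 (genome build Bter_1.0), where the annotation places the gene kruppel homolog 1. The study asked how gene expression differed between female larvae developing as queens and as workers. It sequenced mRNA at the early stage (first and second instar), the mid stage (the third instar) and the late stage (the fourth instar). Each of the 17 libraries held pooled larvae of 1 colony. Queen-destined larvae came from 4 queenless colonies, and worker-destined larvae from 3 queenright colonies, so colony, presence of the queen and caste pathway cannot be told apart. The phenotypes were early queen-destined (EQ, n = 3), early worker-destined (EW, n = 3), mid queen-destined (MQ, n = 3), mid worker-destined (MW, n = 2), late queen-destined (LQ, n = 3) and late worker-destined (LW, n = 3) larvae. The study removed MQ3, LQ3 and MW1, and they are absent from the deposited table. It dropped MQ3 and LQ3 for low read numbers, and MW1 because it resembled the other MW libraries poorly. The spread of MW is thus that of the 2 libraries kept.

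Kr-h1 encodes a zinc finger transcription factor that acts directly below the juvenile hormone receptor. In insects studied so far, juvenile hormone binds the receptor Methoprene-tolerant, which switches on Kr-h1 together with its partner Taiman. Kr-h1 then holds back genes of the metamorphic programme, such as broad and E93, until the hormone declines. In social bees juvenile hormone has long been studied as a signal in queen and worker development.

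The study also designed a pair of PCR oligos against the Kr-h1 transcript, shown here because they identify the gene by sequence. They are 20 and 23 bases long with 60% and 52.2% G and C bases, and are given 5′ to 3′ in lower case.
Kr-h1 forward: tgcaagtcctgtggcaaggg
Kr-h1 reverse: gggcaacctgatgcaatttgagg
The PCR measurements were not analysed here.

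An abundance is a read count per 1000 bases of the feature, taken from libraries resampled to equal depth and then brought to a common distribution, so read depth per value is unknown. The library medians lay between 117.8 and 117.9. Hexamerin, a storage protein of the larval fat body that marks larvae, was above 92.1 to 99.2% of features in every library. In 9 of the libraries a feature on an unplaced scaffold had an abundance of at least 104466, against at most 3932 in the other 8. These 9 were EQ1, EW1, EW2, MQ1, MQ4, LQ1, LQ4, LW1 and LW3. The origin of this split was not tested, and Kr-h1 values are also given within it.

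Kr-h1 was detected in every library. Its mean abundance over all libraries was above that of 77.2% of features, and within a library it was above 57.5% (LW3) to 87.8% (MQ1) of features. Early-instar abundances were 426, 421 and 448 in EQ, against 390.1, 409 and 299 in EW. Mid-instar abundances were 684, 596 and 629.5 in MQ, against 203 and 199.7 in MW. Late-instar abundances were 296, 232 and 296 in LQ, against 233, 166 and 156 in LW. All MQ libraries stood above every other library, and the lowest 6 values were those of the MW and LW libraries and LQ2. The means were 432 ± 14.4 in EQ and 366 ± 58.7 in EW, 636 ± 44.4 in MQ and 202 ± 2.58 in MW, and 275 ± 36.8 in LQ and 185 ± 41.6 in LW (SD, n = 3 each, n = 2 in MW). In bulk larvae a higher level per cell and more cells that express the gene cannot be told apart.

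**Figure D1:**
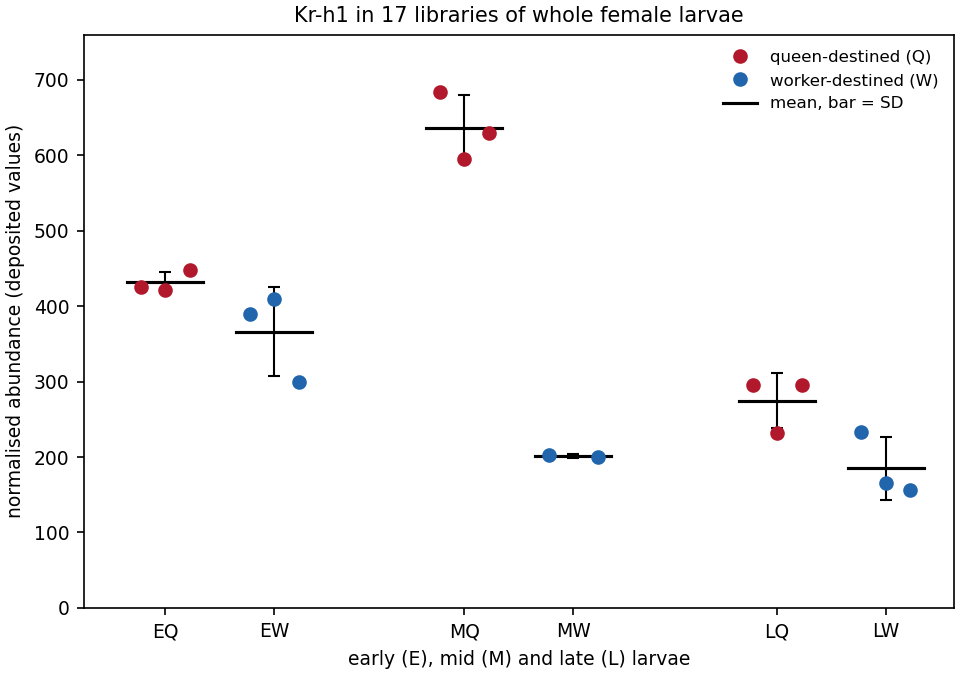
Kr-h1 abundance (vertical axis, deposited normalised values) in each of the 17 libraries, by stage, with queen-destined libraries left of worker-destined ones. Points are libraries, horizontal lines are means and bars are SDs. The MQ libraries sit between 596 and 684 and the MW libraries at 199.7 and 203.

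The caste comparison at each stage asked whether Kr-h1 differed between larvae on the queen and the worker pathway. In mid-instar larvae the mean of MQ was 3.16 times that of MW. The difference was 1.56 on the log2(abundance + 20) scale (SE 0.16, 95% interval 1.22 to 1.91), past the threshold of 0.05 with an adjusted p of 0.000378 in limma, a linear model fitted to all features. At this threshold limma called 8.04% of features between MQ and MW, and 4.72% of features higher in MQ. By p-value Kr-h1 ranked number 6 of the 14817 features, and number 74 by the size of the increase in MQ. Within the 8 libraries low in the scaffold feature, MQ2 stood at 596 against 199.7 and 203 in MW. The other set held no MW library.

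In early-instar larvae the mean of EQ was 1.18 times that of EW. The difference was 0.24 (SE 0.14, 95% interval -0.07 to 0.55) and did not pass the test (limma, adjusted p = 0.88). Limma called 0.00675% of features between EQ and EW, or 1 feature. The ranges did not overlap, but this held for 14.5% of all features at that stage in either direction, and for 5.51% with EQ the higher. The gap was narrow, with 421 in the lowest EQ library and 409 in the highest EW library.

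In late-instar larvae the mean of LQ was 1.49 times that of LW. The difference was 0.54 (SE 0.14, 95% interval 0.22 to 0.85) and just missed the threshold (limma, adjusted p = 0.0528), while 4.55% of features passed it. The ranges met at 1 pair of libraries, LQ2 with 232 and LW1 with 233. The call turned on few libraries: without EW3, LQ2 or LW1 the adjusted p lay between 0.0136 and 0.0393. With the library set as a term, an alternative chosen after seeing the data, it was 0.0232. Within the 9 libraries high in the scaffold feature the LQ abundances were both 296, against 156 and 233 in LW. Within the other 8, LQ2 had 232 and LW2 had 166.

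The study ranked genes by an offset fold change, the log2 ratio of the lowest library of the higher caste to the highest library of the lower caste after adding 20 to both. For Kr-h1 it was 1.46 in MQ over MW, number 26 among all features, and 0.391% of features were higher in MQ by more than 1. In EQ over EW it was 0.0395, and in LQ over LW it was -0.00188.

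The course over the stages differed between the pathways. On the queen pathway Kr-h1 rose and then fell. MQ had 1.47 times the mean of EQ, a difference of 0.54 (SE 0.14, adjusted p = 0.0221 in limma), where 17.8% of features were called. The increase appeared in both colonies sampled at both stages, by 0.66 in MQ1 over EQ1 and by 0.48 in MQ2 over EQ2. The call was lost when single libraries were left out: the adjusted p was 0.0548 to 0.0719 without EQ1, EQ2, EQ3, MQ1 or MQ4, and 0.0612 with colony as a block.

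LQ had 0.432 times the mean of MQ. The difference was -1.16 (SE 0.14, adjusted p = 5.61e-05 in limma), where 39.1% of features were called. All 3 colonies sampled at both stages showed it, with -1.15 in LQ1 over MQ1, -1.29 in LQ2 over MQ2 and -1.04 in LQ4 over MQ4. LQ also fell below EQ, with a difference of -0.62 (SE 0.14, adjusted p = 0.00262 in limma), with 54.3% of features called.

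On the worker pathway Kr-h1 fell at the first step and showed no called change at the next. MW had 0.55 times the mean of EW, a difference of -0.79 (SE 0.16, adjusted p = 0.0162 in limma), where 3.66% of features were called. The difference was -0.94 in MW2 over EW2 and -0.54 in MW3 over EW3. Without EW1, EW2, MW2 or MW3 the adjusted p was 0.059 to 0.124, and it was 0.0792 when only EW and MW libraries were fitted.

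LW had 0.918 times the mean of MW, a difference of -0.13 with a 95% interval of -0.48 to 0.22 (limma, adjusted p = 0.59), where 25.1% of features were called. Both colonies had lower values in LW, with -0.27 in LW2 over MW2 and -0.32 in LW3 over MW3. From early to late stage the difference was -0.92 (SE 0.14, adjusted p = 0.000309 in limma), with 41.7% of features called. It was -0.70, -1.21 and -0.86 in the 3 queenright colonies.

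The change of the caste difference itself was tested as an interaction. Between early and mid stage the difference widened by 1.33 (SE 0.22, adjusted p = 0.0222 in limma). Limma called 0.412% of features for this change and 0.229% in this direction, while 17% had an unadjusted p under 0.05 in either direction. By the size of the widening Kr-h1 ranked number 111 of the 14817 features. Between mid and late stage the caste difference narrowed, with a change of -1.03 (SE 0.22, adjusted p = 0.0293), with 2.47% of features called. From early to late stage it changed by 0.30 (95% interval -0.14 to 0.74, adjusted p = 0.538), with 0.553% called. With colony as a block the first was 1.22 (adjusted p = 0.066) and the next -0.92 (adjusted p = 0.0541). The first call was also lost without EQ2, EQ3, EW1, EW2, MQ4, MW2 or MW3 (adjusted p 0.0522 to 0.11) and with the library set as a term (1.13, adjusted p = 0.0631). The next was lost without MQ1, MQ4, MW2, MW3 or LQ2 (adjusted p 0.0517 to 0.107).

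**Figure D2:**
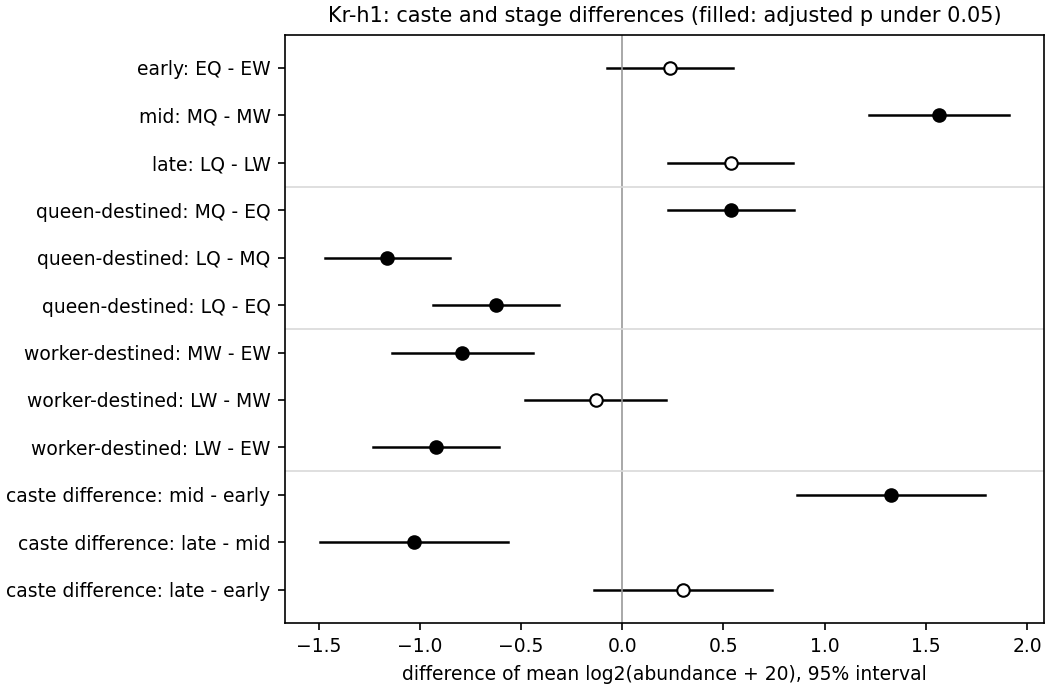
Kr-h1 differences between phenotypes on the log2(abundance + 20) scale (horizontal axis) with 95% intervals from limma; filled points passed an adjusted p of 0.05. The largest caste difference is MQ minus MW at 1.56, and the caste difference widens by 1.33 between early and mid stage.

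Ordered by mean abundance, the phenotypes ran MQ, EQ, EW, LQ, MW and LW. Neighbours in this order differed between MQ and EQ (adjusted p = 0.0221) and between LQ and EW (-0.39, adjusted p = 0.0382 in limma, with 52.1% of features called). EQ and EW, LQ and MW (0.40, adjusted p = 0.0582, with 42.1% of features called), and LW and MW did not pass the test. Stage accounted for 38.6% of the sum of squares of log2(abundance + 20), caste after stage for 35.4%, their interaction for 20.3% and the spread within phenotypes for 5.74%. That spread was 0.18 (SD, log2), against a median of 0.19 in the 2147 features of similar abundance.

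Because the colony was the unit that had or lacked a queen, the castes were also compared over colonies. Each colony's value was the mean deviation of its libraries from their stage mean. The 4 queenless colonies, which gave queen-destined larvae, averaged 0.32. The 3 queenright colonies, which gave worker-destined larvae, averaged -0.34, a difference of 0.66 on the log2 scale. The queenless colonies lay between 0.17 and 0.49 and the queenright colonies between -0.60 and 0.02, without overlap. These values mix different stages. Among the libraries used here, a queenless colony had only EQ3 and another only MQ4 and LQ4. The queenright colony at 0.02 had only EW1 and LW1, with no mid library. The two-sided exact permutation p, which took no account of the stages each colony covered, was 0.0286, the smallest that the 35 assignments allow. Leaving out any colony kept the difference between 0.51 and 0.83. The exact p was then 0.0667 or 0.1, the smallest that 6 colonies allow.

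Features beside the gene were examined because the reads were not aligned across introns, so parts of one transcript can appear as separate features. Besides Kr-h1, 11 features lay within 25 kb. Of these, 4 were higher in MQ than in MW and 0 lower at the limma threshold, and 0 were lower at an unadjusted p under 0.05. Of all features, 4.72% were called higher in MQ and 3.31% lower. An unannotated transcript of 557 bases on the upstream side, 2461 bases from Kr-h1 (NC_015765.1:2495099-2495655), followed Kr-h1 most closely. Its best match in the feature sheet of the study is a Krueppel homolog 1-like transcript of Bombus impatiens.

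The upstream transcript had abundances of 111, 115 and 118 in EQ against 104, 107 and 87.4 in EW. It had 222, 167 and 184 in MQ against 42.0 and 58.3 in MW, and 95.5, 28.1 and 63.2 in LQ against 83.5, 33.4 and 44.5 in LW. As with Kr-h1, the MQ libraries were the highest of all. MQ exceeded MW by 1.59 (SE 0.31, adjusted p = 0.0102 in limma), and LQ minus MQ was -1.44 (SE 0.28, adjusted p = 0.00129). Its ratio to Kr-h1 averaged 0.27 in EQ and 0.27 in EW, 0.30 in MQ and 0.25 in MW, and 0.22 in LQ and 0.28 in LW, and the ranges of the 2 castes overlapped at every stage.

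On the downstream side, 3191 bases away, lay an unannotated transcript of 749 bases (NC_015765.1:2486623-2487371). Its abundances were 469.9, 368 and 566 in EQ against 410.2, 504 and 371 in EW, and 589, 538 and 548 in MQ against 201 and 184 in MW. In late larvae they were 137, 97.1 and 119 in LQ against 158, 90.0 and 65.3 in LW. The caste difference at mid stage was 1.45 (SE 0.25, adjusted p = 0.00629 in limma). At the last step it fell by 2.08 in LQ over MQ (SE 0.23, adjusted p = 1.93e-05 in limma) and by 0.84 in LW over MW (SE 0.25, adjusted p = 0.0279), where Kr-h1 had -1.16 and -0.13. Its ratio to Kr-h1 was 0.40 to 0.46 in LQ, against 0.86 to 0.90 in MQ and 0.87 to 1.26 in EQ. In workers it was 0.42 to 0.68 in LW, against 0.92 to 0.99 in MW and 1.05 to 1.24 in EW. Late libraries thus lay below all earlier ones in this ratio, which was not tested.

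**Figure D3:**
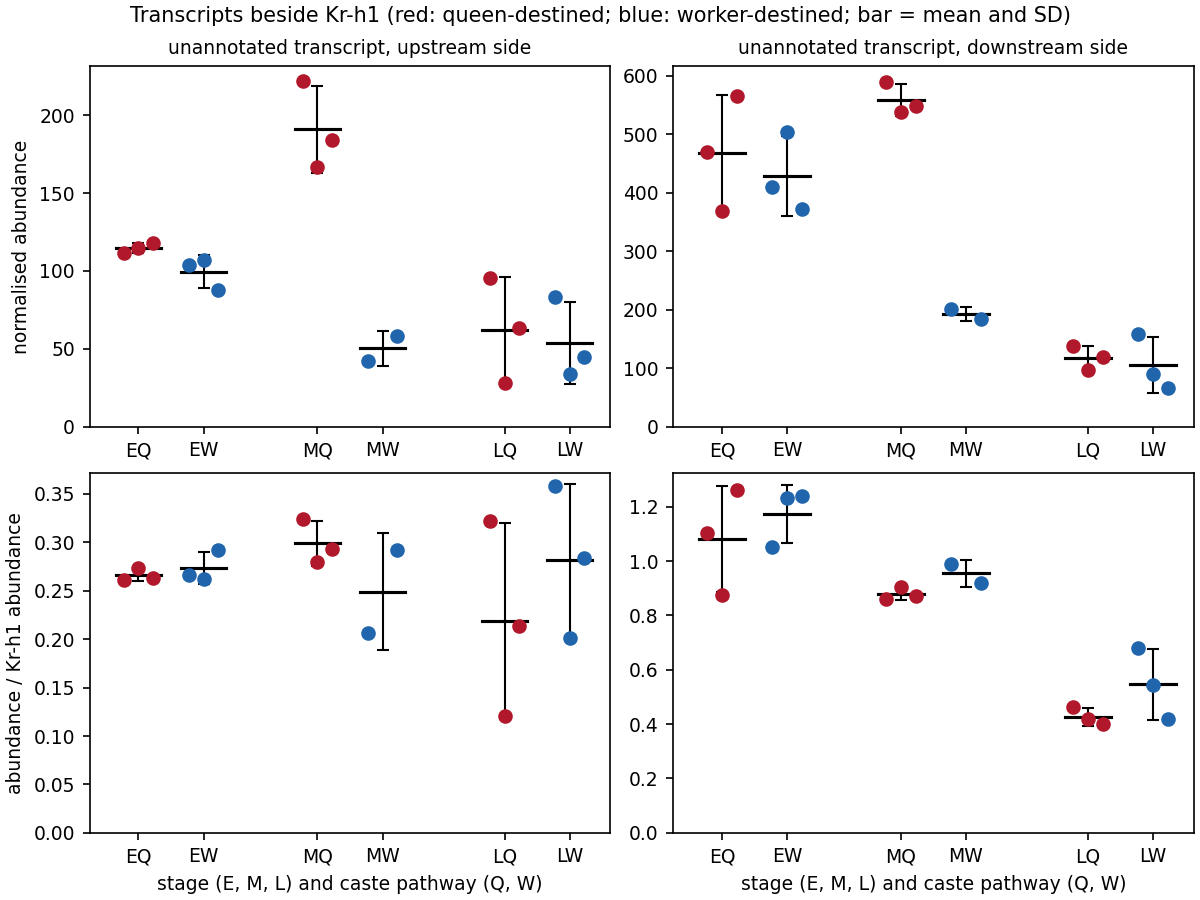
Abundance (top row) and ratio to the Kr-h1 abundance (bottom row) of the unannotated transcripts 2461 bases upstream (left) and 3191 bases downstream (right) of Kr-h1, by phenotype. Points are libraries, lines are means and bars are SDs. The downstream ratio is 0.40 to 0.46 in LQ against 0.86 to 0.90 in MQ.

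The other neighbours called higher in MQ were a sparse transcript 640 bases upstream and LOC100650194, a transmembrane 9 superfamily gene. The sparse transcript had 14.3, 19.7 and 30.8 in MQ against 8.15 and 4.85 in MW (0.63, SE 0.16, adjusted p = 0.0346 in limma), and its call was lost with an offset of 1 in place of 20 (adjusted p = 0.149). LOC100650194 was higher by 0.67 (SE 0.15, adjusted p = 0.0172). It rose at the last step in both pathways, by 0.60 on the queen pathway (SE 0.13, adjusted p = 0.00308) and by 0.82 on the worker pathway (SE 0.15, adjusted p = 0.00242). The remaining 7 neighbours were not called at mid stage, with differences of 0.01 to 0.33. The count of 4 depended on the MW libraries: it was 1 without MW2 and 0 without MW3. In the later assembly iyBomTerr1.2 the genes on either side of Kr-h1 are annotated as long non-coding RNAs. Whether they hold the unannotated transcripts was not tested.

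To place Kr-h1 in the whole profile, features were ranked by Pearson correlation with Kr-h1 on log2(abundance + 20) over the 17 libraries, which share their stage and colony structure. This is a description. The median over all features was 0.03, and 16 features were above 0.9 and 0 above 0.95. The upstream transcript was first at 0.93, and the downstream one was number 30 at 0.89. Of the first 10 features, 1 carried a product name that could be used, estradiol 17-beta-dehydrogenase 2 (number 4, r = 0.92), a steroid-converting enzyme of the short-chain dehydrogenase type in vertebrates. Its abundances were 579, 533 and 628 in MQ against 187 and 167 in MW, and 363, 262 and 219 in LQ against 252, 235 and 222 in LW. In early larvae it had 469, 478 and 488 in EQ against 407, 371 and 359.7 in EW.

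Product names could be assigned to 451 features. They lie in the readable part of the study's feature sheet, which follows the early caste difference. Of its 1054 features, 96.5% had a higher mean in EQ than in EW, as Kr-h1 had. Among the 451, golgin-84, a protein of the Golgi membrane, was next in likeness (0.90). After it came probable cytochrome P450 303a1 (0.89) and serum response factor homolog, a MADS-box transcription factor (0.88). Skeletor (0.85), band 3 anion transport protein (0.85), glycine transporter 1-like (0.84), the kinase Btk29A (0.83), MOXD1 homolog 1 (0.83) and zinc finger C2HC domain-containing protein 1B-like (0.82) followed. All 10 of these named features had a higher mean in MQ than in MW, which picking them by likeness to Kr-h1 favours. The lowest correlations among named features were those of MFS-type transporter SLC18B1-like (-0.75), myosin-G heavy chain (-0.73), ZIC 1-like (-0.70), arylsulfatase B-like (-0.69) and semaphorin-5A (-0.67).

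Few features shared the calls of Kr-h1. Of the 700 features called higher in MQ than in MW, 409 were also called higher in MQ than in EQ, and 46 were called lower in MW than in EW. Of all features, 10.2% were called higher in MQ than in EQ and 1.74% lower in MW than in EW. These comparisons share the MQ or the MW libraries, so part of the overlap is built in. In all, 4 features had the full set of calls of Kr-h1, namely higher in MQ than in MW and in EQ, lower in LQ than in MQ and lower in MW than in EW. They were Kr-h1, golgin-84, probable cytochrome P450 303a1 and an unannotated transcript without a name. This set was chosen after the calls were seen, and no test was made of it. Cytochrome P450 303a1 had 66.5, 128 and 75.7 in MQ against 13.7 and 6.36 in MW. Its values in late larvae were 3.79, 3.60 and 7.24 in LQ against 15.6, 5.64 and 4.40 in LW. Golgin-84 had 180.2, 172 and 160.5 in MQ against 81.4 and 73.0 in MW, and 90.6 to 93.5 in LQ against 95.3 to 97.9 in LW.

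**Figure D4:**
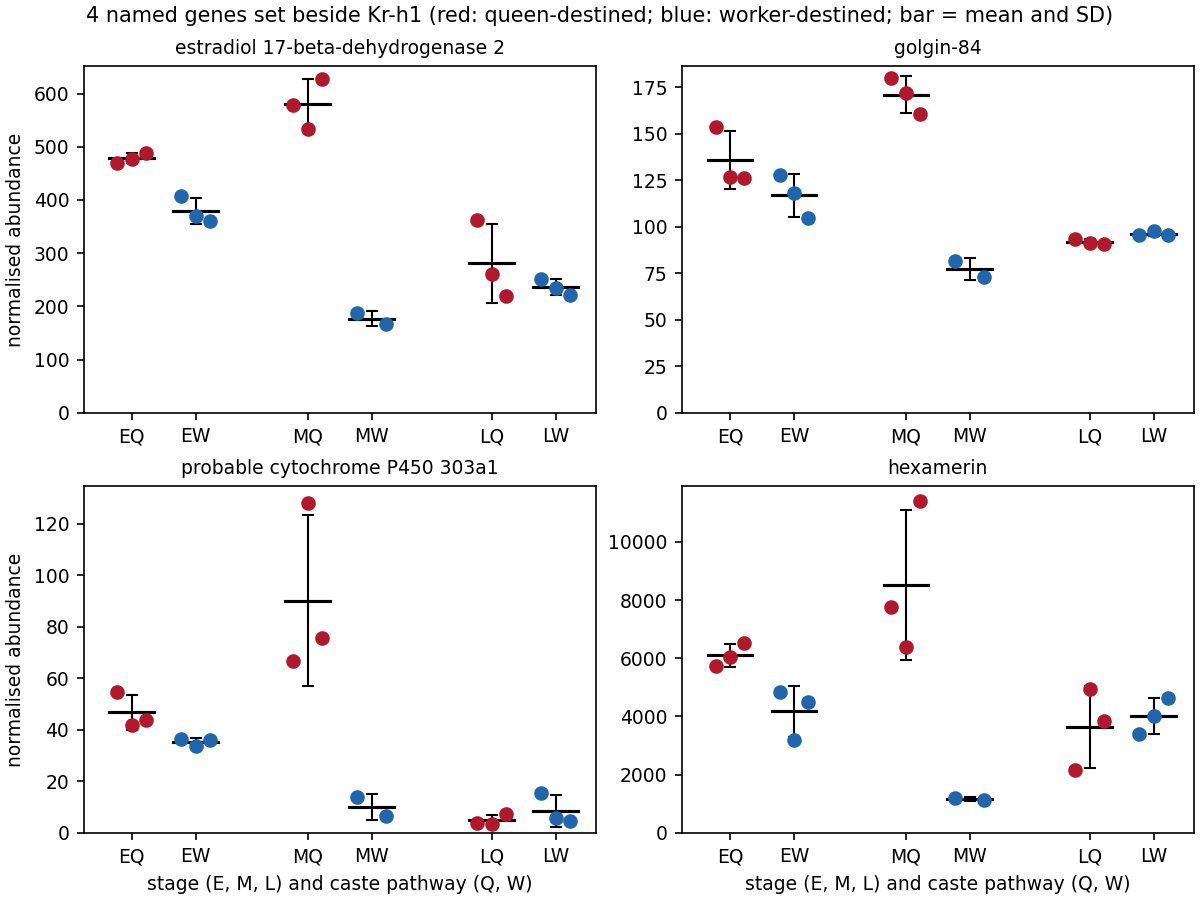
Abundance by library of estradiol 17-beta-dehydrogenase 2, golgin-84, probable cytochrome P450 303a1 and hexamerin, by phenotype. Points are libraries, lines are means and bars are SDs. Each gene has its highest mean in MQ, and hexamerin stands at 1114 and 1201 in the MW libraries against 6385 to 11398 in MQ.

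Genes of juvenile hormone, ecdysone and insulin signalling and metamorphosis were then compared with Kr-h1. Besides Kr-h1, 21 listed features could be named, and no gene of juvenile hormone synthesis or transport was among them. The readable sheet follows the early caste difference, so 96.5% of its 1054 features had a higher mean in EQ. Of the 21, 8 were higher in MQ than in MW and 0 lower (limma, 0 lower also at an unadjusted p under 0.05), against 4.72% of all features and 11.9% of the features in the sheet that were called higher. Their median difference was 0.44, against 0.04 over all features and 0.14 over the sheet. Among the 8 were the upstream transcript, which may be part of Kr-h1 itself, and a pair of tramtrack features. The count of 8 was 5 without MQ4 and 1 without either MW library.

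Of the receptor partners, importin subunit beta-1, a nuclear import receptor that takes part in the nuclear entry of Methoprene-tolerant in Drosophila, had 301, 245 and 446 in MQ against 165 and 165 in MW. The difference was 0.88 (SE 0.18, adjusted p = 0.0138 in limma). It rose in LW over MW by 0.75 (SE 0.18, adjusted p = 0.0118), where Kr-h1 had no called change. Its caste difference narrowed between mid and late stage, with a change of -1.02 (SE 0.25, adjusted p = 0.0483).

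Of the 6 features listed by product name as metamorphosis transcription factors besides Kr-h1, 4 were higher in MQ. Of all features 4.72% were called so, and of those in the sheet 11.9%. The upstream transcript was among the 4 and may be part of Kr-h1 itself, which was not tested. The list was drawn for broad, E93 and the Krüppel family, and also took in a pair of tramtrack features. The broad-complex core protein was higher by 0.50 (SE 0.11, adjusted p = 0.0194 in limma). Its means were 70.7 in MQ and 44.2 in MW. A pair of features annotated as tramtrack beta isoform-like, zinc finger repressors that in Drosophila act in eye and tracheal development, were higher in MQ by 0.75 and 0.81. The call of the one at 0.81 was lost with an offset of 50 (adjusted p = 0.0513) and with the library set as a term (adjusted p = 0.0725). The broad-complex and both tramtrack features also rose in LW over MW, by 0.35 to 0.73. Krueppel-like factor 10 (0.31 in MQ over MW) and Krüppel, the segmentation gene (0.02), did not pass the test.

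Of the 7 ecdysone receptor and response features, 2 were higher in MQ, where 4.72% of all features and 11.9% of those in the sheet were. The transcript whose best match is HR3, an early-late nuclear receptor of the ecdysone cascade, was higher by 0.91 (SE 0.23, adjusted p = 0.0329 in limma), and orphan steroid hormone receptor 2 by 0.45 (SE 0.10, adjusted p = 0.0166). The HR3 call was lost with an offset of 1 (adjusted p = 0.059) and with the library set as a term (adjusted p = 0.0836). HR3 fell with Kr-h1 on the queen pathway after mid stage, by 1.40 (SE 0.21, adjusted p = 0.000202). HR38 and both features of hormone receptor 4 were also called lower in LQ than in MQ, with -0.59, -0.22 and -1.67. The feature at -0.22 is a long one, with means of 4.06 in MQ and 0.63 in LQ. Abundances are divided by the length of the whole feature, so these low means do not show that the gene was barely expressed. The offset also understates changes at such low values. ERR1, the estrogen-related receptor, went the other way with 1.10 in LQ over MQ and 0.89 in LW over MW. Ecdysone-induced protein 78C, also a long feature, had means up to 2.0, with 2.04 in MQ and 0.54 in MW, and passed no test. The limits given for the feature at -0.22 hold for it too. Cytochrome P450 307a1-like, an enzyme of ecdysteroid synthesis, was not called at mid stage (0.45, adjusted p = 0.0929).

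Over the stages, 6 of the 21 fell and 2 rose in LQ over MQ, where 18.6% of all features fell and 20.5% rose. The 6 included the upstream transcript, which may be part of Kr-h1 itself, and both features of hormone receptor 4. In LW over MW 8 rose and 0 fell, with 0 falling also at an unadjusted p under 0.05, where 14.5% rose and 10.6% fell. In LQ over LW 1 of the 21 was called, hormone receptor 4-like, with -0.15, near the 4.55% of all features called there. That feature had means of 0.63 in LQ and 2.89 in LW. Its libraries ran from 0.45 to 0.92 in LQ and from 2.71 to 3.06 in LW, without overlap. The values are divided by the length of a long feature, so they do not show that the gene was barely expressed. The offset understates changes at such low values. Of the 5 insulin and TOR signalling features, which act in growth and nutrition, limma called 0 at mid stage, and 1 was higher in MQ at an unadjusted p under 0.05. S6 kinase was higher in LQ than in EQ by 0.67 and in LW than in EW by 0.65, and a regulatory subunit of phosphatidylinositol 3-kinase by 0.97 and 0.95, at steps where 54.3% and 41.7% of all features were called. The other 3 were not called at these steps, with -0.27 to -0.04 in LQ over EQ and -0.16 to 0.03 in LW over EW.

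**Figure D5:**
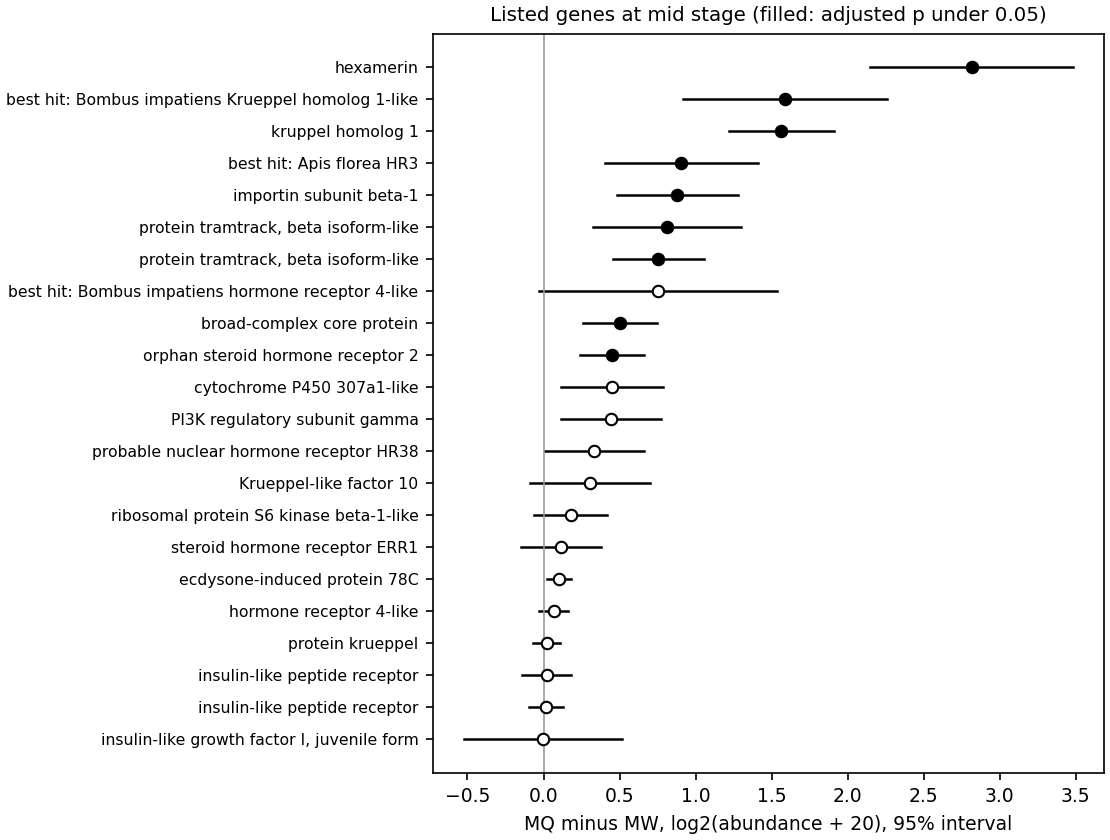
Difference between MQ and MW on the log2(abundance + 20) scale (horizontal axis) with 95% intervals from limma for Kr-h1 and the 21 listed features that could be named. Filled points passed an adjusted p of 0.05; these are Kr-h1 at 1.56 and 8 others, from 0.45 to 2.82 for hexamerin.

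Hexamerin showed the largest caste difference among the listed genes. It had 7762, 6385 and 11398 in MQ against 1201 and 1114 in MW, a difference of 2.82 (SE 0.31, adjusted p = 0.00043 in limma). Early larvae had 5751, 6032 and 6522 in EQ against 4841, 3194 and 4505 in EW, and late larvae 2143, 4938 and 3833 in LQ against 3384, 4025 and 4626 in LW. Like Kr-h1 it fell in MW relative to EW (-1.81, SE 0.31, adjusted p = 0.00591). It then rose in LW over MW by 1.77 (SE 0.31, adjusted p = 0.00206), where Kr-h1 had -0.13. Its correlation with Kr-h1 over the 17 libraries was 0.66, given as a description.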

How the data were processed

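Whole female larvae of Bombus terrestris audax were profiled by single-end Illumina mRNA-seq. The authors filtered reads, resampled every library to 1 depth, and aligned them to build Bter_1.0 and its annotation with PatMaN, allowing 1 mismatch and no gaps for introns. Reads that fit several places were counted at each. The authors divided the counts by feature length, applied quantile normalisation and deposited the result, a signal per feature and library with no read depth attached, so genes that share reads are uncertain and no counting interval can be given. Length correction uses the whole feature, so levels of genes with long introns are not comparable with those of Kr-h1.

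From the deposited abundances, log2(abundance + 20) was modelled by limma 3.58.1 (R 4.3.3) over 14817 features in 17 libraries, with a mean for each of 6 phenotypes, 1 spread per feature (11 residual degrees of freedom) and an intensity trend. The offset of 20 is that of the study. It understates changes of low features. P-values are two-sided, adjusted by Benjamini-Hochberg over all features, with a threshold of 0.05. The script was tested on simulated data.

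Colonies come from the study's sample table. A replicate number marks 1 colony within a caste pathway, and deviations from phenotype means correlated at a median of 0.26 over the 14 same-colony pairs, against -0.12 between colonies of a pathway. Colony was therefore a block in an alternative for stage changes. Between pathways a number marks nothing.

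Named features were Kr-h1, all features within 25 kb, the 10 most correlated with it, the 10 most and 5 least correlated that have product names, and every listed hormone or metamorphosis gene that could be named. Names come from the first 1054 lines of the study's feature sheet, which matched a feature in every case. The gene, the lists and the rules were chosen with earlier results of these data known. Alternatives were other offsets (1 and 50), a minimum mean abundance of 100, a table without unannotated transcripts, blocks, no trend, library weights, rescaling, fewer libraries and leaving out each library.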

Additional observations from a re-analysis of the deposited data

Results flagged for a closer look

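The caste difference of Kr-h1 passed the test of a change between stages: it widened by 1.33 (SE 0.22, adjusted p = 0.0222 in limma) between early and mid larvae and then changed by -1.03 (SE 0.22, adjusted p = 0.0293) between mid and late larvae. Both calls were lost with colony as a block (1.22, adjusted p = 0.066, and -0.92, adjusted p = 0.0541), and when single libraries were left out, 7 of 17 for the first and 5 of 17 for the next. The caste difference of hexamerin, the larval storage protein, changed at these steps by 2.25 (SE 0.42, adjusted p = 0.0363) and -3.03 (SE 0.42, adjusted p = 0.00428). Importin subunit beta-1, a nuclear import receptor, had a change between mid and late larvae of -1.02 (SE 0.25, adjusted p = 0.0483). Each was picked out because the test of the difference between stages passed.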

How the results depend on the processing

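The caste difference of Kr-h1 at mid stage stayed past the threshold under every alternative run, with an adjusted p of at most 0.0286. Over all Kr-h1 model results, 140 of 153 kept their direction and call under settings other than leaving out a library, 180 of 204 when 1 library was left out, and 0 reversed. The causes of the changes below were not tested, except that some settings test fewer features or libraries by construction. The late caste difference passed with annotated features only (0.54, adjusted p = 0.037), with colony as a random block (0.54, adjusted p = 0.0471), with estimated library weights (0.69, adjusted p = 0.00115) and with the library set as a term (0.54). Library weights also brought the change of the caste difference between early and late stage past the threshold (0.52, adjusted p = 0.0389).

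With a replicate block across both pathways, MQ over EQ (0.45, adjusted p = 0.0605) and the widening of the caste difference between early and mid stage (1.16, adjusted p = 0.0716) were no longer called, the count of listed genes was 3 in place of 8, and 1 step of the phenotype order was called in place of 2. Same-numbered libraries of a stage in different pathways correlated above 0.1 in 4 of 6 pairs, and share only a number. With the colony block, pairing stages within a pathway, MQ over EQ was 0.54, the widening 1.22 and the narrowing after mid stage -0.92, none of them called, and it changed no other call. The library set as a term, chosen after seeing the data, gave 1.13 for the widening. Fitting only the phenotypes compared ended the calls of MW over EW (-0.79) and of the narrowing (-1.03), and left 1 neighbour and 0 listed genes called at mid stage, of which 4 and 8 were called with all libraries.

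Among features with a mean of at least 100, 2 neighbours and 2 listed genes were called at mid stage, and among annotated features 1 neighbour. The offset fold change at mid stage was 1.55 with an offset of 1 and 1.35 with 50. Of the 10 features most correlated with Kr-h1, 6 were shared by Spearman correlation 0 by deviations from phenotype means and 8 with an offset of 1.

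Leaving out 1 library gave 0.44 to 0.70 for the late caste difference, 0.49 to 0.58 for MQ over EQ, -0.92 to -0.71 for MW over EW, 1.25 to 1.46 for the widening and -1.13 to -0.87 for the narrowing. It gave 1 to 3 called steps, 0 to 5 neighbours and 1 to 9 listed genes, while the offset fold change ran between 1.46 and 1.54 at mid stage and between -0.00188 and 0.44 at late stage. Leaving out 1 colony gave 0.51 to 0.83 for the difference over colonies. Where MW kept 1 library, it was assumed to vary like the others. MW had 2 libraries and the read depth of values is unknown, which limits every comparison with mid-instar workers.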
